A study of Mus musculus with 6 samples.

Results

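Expression of 10 genes of fat cells was examined in muscle RNA of mice labelled click response-treated or EDC response-treated, here called click and EDC. The genes are Pparg, Cebpa, Adipoq, Cfd, Retn, Lep, Plin1, Cidec, Fabp4 and Scd1. They were chosen as a named list, by symbol, and each had 1 row in the deposited count table, 10 of 52110 rows with a gene symbol. The groups were 3 libraries from c57b6l wild-type (WT) mice of the click label and 3 from c57b6l WT mice of the EDC label. The labels give no dose, time, age or muscle, and neither group is labelled as untreated, so values are given for click relative to EDC. The series names 3 mice per group. No label states how a replicate was taken, and the p-values measure the spread between these libraries.

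Fat cells store triglyceride in a lipid droplet and release hormones into the blood. In skeletal muscle they lie between the fibre bundles and around the muscle, and can form from resident mesenchymal precursor cells. The nuclear receptor PPAR gamma, encoded by Pparg, and the leucine zipper factor C/EBP alpha, encoded by Cebpa, induce each other and drive the genes of the mature fat cell. Adipoq encodes adiponectin, Lep leptin, Retn resistin and Cfd the complement protease adipsin, all of them secreted by mouse fat cells. Perilipin 1, encoded by Plin1, coats the droplet and controls access of lipases to it, and Cidec promotes the fusion of small droplets into a large one. Fabp4 encodes the fatty acid binding protein of fat cells, which capillary endothelial cells and macrophages also make. Scd1 encodes a desaturase that makes monounsaturated fatty acids and is active in many tissues.

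The libraries held 34472421 to 39305779 reads. Levels are in CPM, counts of a gene relative to the size of its library, which was scaled by TMM factors. Click replicate 1 and EDC replicate 1 had reads of the female transcript Xist and none of the Y-linked Ddx3y, and the other 4 libraries the reverse. Mitochondrially encoded genes took 18.9% to 30.2% of the reads in click and 14.8% to 17.9% in EDC. The summed level of 12 skeletal muscle fibre markers was 123000 to 178000 CPM in click and 80300 to 137000 CPM in EDC, against 230 to 483 CPM in click and 329 to 435 CPM in EDC for the 10 fat cell genes together. Fibre markers were thus abundant in all 6 libraries, as a muscle label requires, and the fat cell genes were a small part of the RNA. In muscle as a whole, fewer fat cells and less of a transcript per fat cell cannot be told apart.

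The genes are scattered over 7 chromosomes of mm10, and all 10 are protein-coding in the GENCODE M21 annotation. Promoter sequences were found in RefSeq tables (GRCm38.p6, the assembly behind mm10) for 8 of the 10, at 11 starts. Those of the 2 regulators and of the genes of 2 secreted hormones are shown, since the regulators lay lower in every click library and the hormone genes did not. Each sequence is the 250 bases before a RefSeq start, and capitals mark the motifs searched on both strands, which were TTGCGCAA for C/EBP, AGGTCA for nuclear receptors, CCAAT and TATAAA.
Pparg (chr6:115362099-115362348, plus strand): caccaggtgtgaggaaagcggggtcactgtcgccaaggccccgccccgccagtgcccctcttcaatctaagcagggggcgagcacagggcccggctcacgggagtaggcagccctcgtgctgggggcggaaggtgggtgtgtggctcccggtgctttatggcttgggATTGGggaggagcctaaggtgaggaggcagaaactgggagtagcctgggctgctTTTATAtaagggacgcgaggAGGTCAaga
Cebpa (chr7:35119043-35119292, plus strand): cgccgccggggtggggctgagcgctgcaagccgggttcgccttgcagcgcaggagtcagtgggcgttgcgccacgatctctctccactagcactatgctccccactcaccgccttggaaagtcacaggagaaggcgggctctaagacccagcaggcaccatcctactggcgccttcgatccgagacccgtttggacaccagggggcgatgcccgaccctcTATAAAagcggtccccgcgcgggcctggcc
Adipoq (chr16:23146286-23146535, plus strand): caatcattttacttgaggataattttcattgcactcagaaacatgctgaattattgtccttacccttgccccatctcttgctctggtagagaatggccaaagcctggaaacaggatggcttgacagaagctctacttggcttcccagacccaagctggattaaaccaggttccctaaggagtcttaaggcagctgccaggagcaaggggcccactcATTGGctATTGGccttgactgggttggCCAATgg
Lep (chr6:29059971-29060220, plus strand): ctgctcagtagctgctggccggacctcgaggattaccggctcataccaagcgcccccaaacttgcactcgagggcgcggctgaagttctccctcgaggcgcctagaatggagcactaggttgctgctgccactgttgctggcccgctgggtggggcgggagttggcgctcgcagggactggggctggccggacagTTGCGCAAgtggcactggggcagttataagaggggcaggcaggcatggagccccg
The C/EBP palindrome TTGCGCAA was found 55 bases before the Lep start and in no other member promoter, and 0.164% of all 32851 promoter windows of that length held it. The AGGTCA core was found in 2 of the 11 member windows, against 14.0% of all windows. Both were at Pparg, which has 3 starts, of which 1 is shown. CCAAT was found in 3 of the 11 member windows, at Adipoq and Pparg starts, and in 33.8% of all windows. It stood 3 times before the Adipoq start. TATAAA was found before Cebpa and Pparg starts, and in 12.4% of all windows. The full direct repeat AGGTCANAGGTCA, to which PPAR gamma binds with its partner RXR, was in none of the 11 windows and in 0.0335% of all. A match only describes the letters of these windows.

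The comparison asked whether fat cell genes differed between click and EDC muscle. None of the 10 passed the threshold of edgeR's quasi-likelihood test (adjusted p under 0.05 over 15797 genes), which called 0% of all genes lower and 0.00633% higher in click. The log2 fold changes ran from -1.44 to 0.68, with 8 of 10 below 0 and a median of -0.63, where 48.7% of all genes tested were below 0 and their median was 0.02. The median of the 10 was -0.12 without click replicate 1, -1.62 without click replicate 3, 0.04 in male libraries alone and -1.52 by limma-voom. At an unadjusted edgeR p under 0.05, 2 were lower in click and 0 were higher, against 8% and 7.22% of all genes. The values fell into 3 patterns. The 2 regulators were lower in each click library. Adipoq, Cfd, Retn, Plin1 and Cidec, made mainly by fat cells, were far lower in click replicate 1 than in any EDC library. Lep, the last of these 6 genes, had 0 reads in click replicates 1 and 2 and only 11 in EDC replicate 1. Such counts are too small to say how far apart its libraries lay. The groups of all 6 genes overlapped. In click replicate 2, Adipoq, Lep, Plin1 and Cidec were also below every EDC library, so their overlap came from click replicate 3 alone. Fabp4 and Scd1 followed neither pattern.

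**Figure D1:**
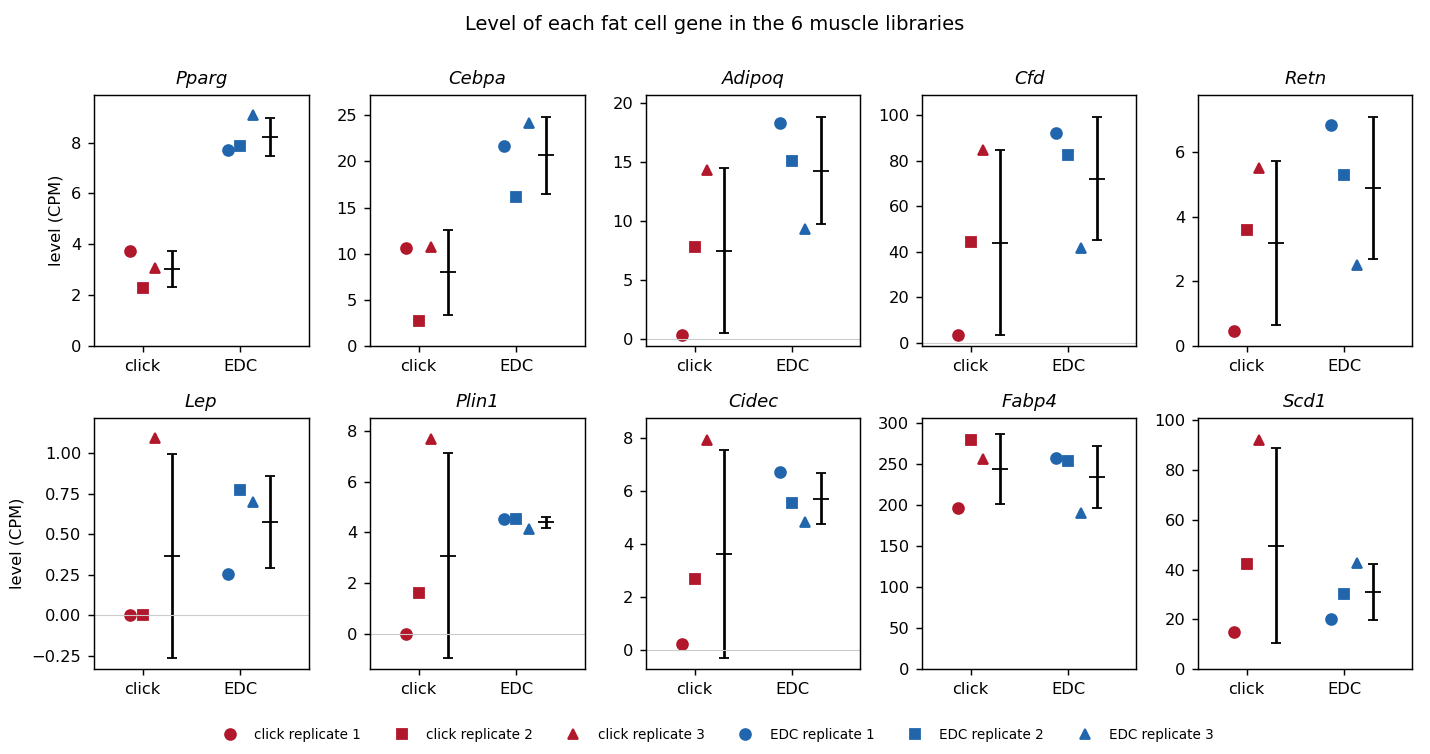
Level of each of the 10 genes in CPM (vertical axis, starting at or below 0) in click and EDC muscle; each point is a library, and the bar beside it is the mean ± SD of n = 3. The click and EDC points of Pparg and Cebpa do not overlap, while click replicate 1 lies near 0 for Adipoq, Cfd, Retn, Lep, Plin1 and Cidec; SD bars that pass below 0 reflect the spread within click.

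Pparg, the master regulator of fat cell formation, showed the tightest difference. Its plus-strand locus is chr6:115360951-115490399. Its level was 3.73, 2.29 and 3.06 CPM in click replicates 1, 2 and 3, and 7.71, 7.88 and 9.07 CPM in EDC replicates 1, 2 and 3. All 3 click libraries lay below all 3 EDC libraries, at 45.3%, 27.9% and 37.2% of the EDC mean. Click libraries averaged 3.03 ± 0.718 CPM, against 8.22 ± 0.740 CPM for EDC libraries (SD over 3 libraries each). The difference came to -1.44 on the log2 scale (SE 0.27), with 0.298 as its adjusted p by edgeR. The DESeq2 Wald test, run as an alternative, called Pparg lower in click (DESeq2 adjusted p = 4.73e-04), as it did 2.43% of genes, with 1.73% higher. The limma-voom adjusted p was 0.280.

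Cebpa, on the plus strand at chr7:35119293-35121928, gave 10.6, 2.66 and 10.7 CPM in click and 21.7, 16.1 and 24.2 CPM in EDC. Again no click library reached an EDC library, and click replicate 2 was far below the others. This is a log2 fold change of -1.37 with an SE of 0.50 (edgeR adjusted p = 0.303). DESeq2 did not call it (DESeq2 adjusted p = 0.0971). A predicted gene on the opposite strand, Gm45091, shares 51 exon bases with Cebpa, and without knowledge of strand their reads cannot be told apart there. Pparg and Cebpa were the 2 members whose groups did not overlap, both lower in click, against 12.4% of all genes below and 9.84% above.

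Macrophages also transcribe Pparg and Cebpa, and their markers had a like order of libraries. Added up, 10 macrophage markers came to 1150, 159 and 1010 CPM in the click libraries, against 2220, 1730 and 4120 CPM in the EDC libraries, each in the order of replicates 1, 2 and 3. Of these 10 markers, 9 lay lower in click, with a median log2 fold change of -1.91, and 8 had groups that did not overlap. Csf1r, the receptor for macrophage growth factor, was at 38.2, 6.11 and 37.3 CPM in click and 86.3, 82.2 and 144 CPM in EDC. Click replicate 2 was the lowest library for Csf1r, Pparg and Cebpa alike, and EDC replicate 3 the highest. Fibroblast markers ran the same way, with sums of 751 to 4640 CPM in click and 5130 to 8060 CPM in EDC and 9 of 10 markers lower in click. The part of either cell type in the Pparg and Cebpa values was not tested.

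Among the secreted proteins, Adipoq gives the clearest picture of the second pattern. Adiponectin mRNA, from the plus strand of chr16:23146536-23158028, was at 0.362, 7.79 and 14.3 CPM in click and 18.3, 15.1 and 9.37 CPM in EDC. Click replicate 1 rested on 10 reads (exact Poisson 95% interval 4.80 to 18.4 reads, which covers counting error only) and stood at 2.54% of the EDC mean. Click replicate 3 was at 101% of that mean, and EDC replicate 3 lay between click replicates 2 and 3. The groups overlapped, and the edgeR log2 fold change of -0.92 (SE 0.96, with an adjusted p of 0.638) became -0.38 (SE 0.39, edgeR adjusted p = 0.698) without click replicate 1 and -1.80 without click replicate 3.

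Cfd, which encodes adipsin and was next to Fabp4 the most abundant of the 10 per kilobase of exon, followed Adipoq closely. It was at 3.33, 44.1 and 84.7 CPM in click and 92.3, 82.6 and 41.6 CPM in EDC. The log2 fold change was -0.71 (SE 0.92, edgeR adjusted p = 0.713), and -0.18 (SE 0.43) without click replicate 1. Retn, the resistin gene, was at 0.470, 3.60 and 5.51 CPM in click and 6.84, 5.31 and 2.51 CPM in EDC. In both genes click replicate 1 was lowest and EDC replicate 3 the lowest of its group. Retn gave -0.61 (SE 0.79, edgeR adjusted p = 0.714), and -0.11 (SE 0.48) without click replicate 1. Male libraries alone turned both to the other sign, at 0.05 for Cfd and 0.22 for Retn.

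Leptin mRNA was near the limit of detection throughout. Lep had 0, 0 and 43 reads in click and 11, 28 and 35 reads in EDC, or 1.09 CPM in click replicate 3 and 0.252, 0.774 and 0.696 CPM in EDC. Set at a floor of 3 reads, the one-sided limit for a count of 0, click replicates 1 and 2 allow up to 0.109 CPM, so that the EDC mean was at least 5.26-fold higher than either. Click replicate 3 nevertheless had the highest level of the 6 libraries. The log2 fold change was -0.60 (SE 1.46, edgeR adjusted p = 0.851).

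The droplet protein genes showed the same library at the bottom. Plin1, on the minus strand at chr7:79720218-79732903, had 0, 44 and 303 reads in click and 198, 163 and 208 reads in EDC. That is 0, 1.60 and 7.66 CPM in click and 4.53, 4.51 and 4.14 CPM in EDC. The EDC libraries were nearly equal, whereas click ran from no read to above every EDC library. Against the same floor of 3 reads, the EDC mean was at least 40.5-fold higher than click replicate 1. The fitted log2 fold change was -0.50 (SE 1.25, edgeR adjusted p = 0.855), and 0.06 (SE 0.61) without click replicate 1, so its sign rests on that library.

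Cidec was at 0.217, 2.69 and 7.92 CPM in click and 6.73, 5.53 and 4.83 CPM in EDC. Only 6 reads were found in click replicate 1. The gene gave -0.65 (SE 0.94, edgeR adjusted p = 0.743), and -0.12 (SE 0.48) without click replicate 1. Over the 6 libraries Plin1 and Cidec stood in the same order, from click replicate 1 as lowest to click replicate 3 as highest.

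**Figure D2:**
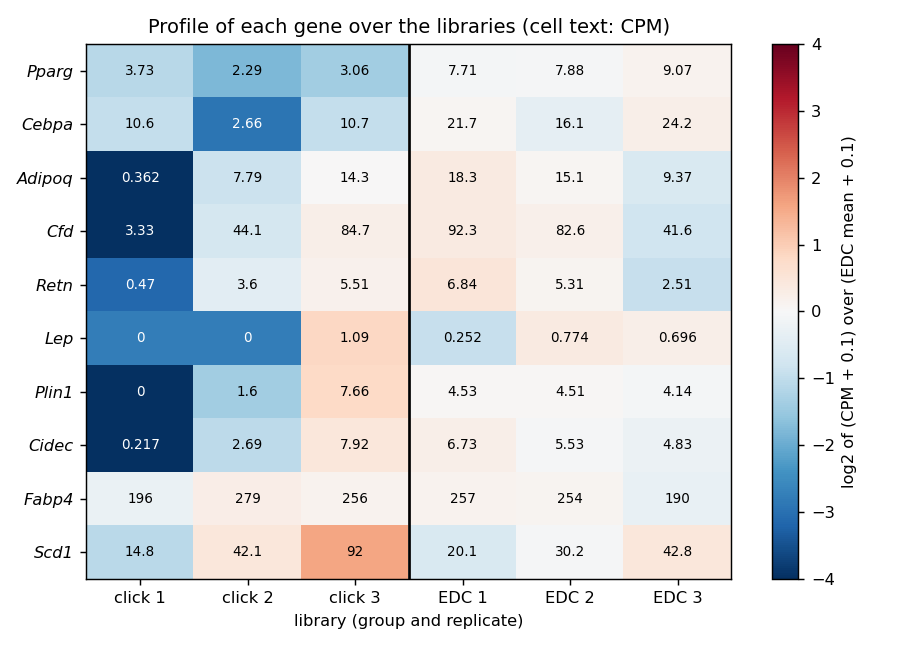
Level of each gene (rows) in each library (columns), coloured by log2 of CPM + 0.1 over the EDC mean + 0.1, with the CPM printed in each cell and click left of the line. The cells from Adipoq to Cidec are dark blue in click replicate 1, the top 2 rows are blue in all 3 click libraries, and Scd1 is reddest in click replicate 3.

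Summed over these 6 genes, click gave 4.38, 59.8 and 121 CPM in replicates 1, 2 and 3, and EDC gave 129, 114 and 63.1 CPM. Most of each sum was Cfd, at 3.33, 44.1 and 84.7 CPM in click and 92.3, 82.6 and 41.6 CPM in EDC. Adipoq, Retn and Cidec also fell from EDC replicate 1 to 3, but Plin1 was nearly equal over EDC and Lep was lowest in EDC replicate 1. The number of reads behind the sums was 121 in click replicate 1 and 1644 to 5632 in the other libraries. Adipoq, Plin1, Cidec and Cfd in click replicate 1 were each more than 10-fold below every other library. Of all genes, this was so for 1.40% of the 15935 genes with at least 60 reads in all, and for 0.113% to 2.38% of genes in the other libraries taken the same way, with none of the 10 fat cell genes among them. Click replicate 1 also had the fewest genes with reads, 18628, against 18844 to 21380 in the others. Its mitochondrial share of 30.2% was the highest and its TMM factor of 0.704 the lowest. Click replicate 2 came next in both, at 27% and 0.771. The part of the library in these low values was not tested.

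Other genes of the fat cell lists were divided in click replicate 1. Lgals12, a lectin of the fat cell droplet, was at 0, 1.16 and 2.53 CPM in click and 1.40, 1.47 and 1.65 CPM in EDC. Adrb3, the beta 3 adrenergic receptor that starts lipolysis, was at 0.109, 0.982 and 1.24 CPM in click and 1.69, 1.41 and 1.47 CPM in EDC (log2 fold change -0.96, SE 0.74). Adig, adipogenin, was at 0.434, 1.09 and 1.80 CPM in click and 1.90, 1.71 and 0.815 CPM in EDC. These 3 and Tusc5, at 0.651, 1.49 and 2.55 CPM in click and 2.29, 1.96 and 1.35 CPM in EDC, were lowest in click replicate 1. Car3, carbonic anhydrase of fat and slow fibres, was highest there, at 9770, 6400 and 4330 CPM in click and 3800, 4310 and 3270 CPM in EDC. Pnpla2 was highest there too, at 115, 110 and 99.4 CPM in click and 83.9, 112 and 67.0 CPM in EDC. Tmem120b, a nuclear envelope protein gene, was also highest there, at 7.05 CPM, and the glycerol channel gene Aqp7 stood at 6.84 CPM there, against 6.61, 7.08 and 3.40 CPM in EDC. Hormone-sensitive lipase, Lipe, which muscle fibres also make, varied less, at 7.13, 12.2 and 14.5 CPM in click and 10.9, 12.4 and 11.7 CPM in EDC. Lymph nodes lie embedded in fat, and their markers summed to 15.6, 136 and 381 CPM in click and 50.2, 15.2 and 13.1 CPM in EDC. Their order within click matched that of the fat genes, and in EDC replicate 1, the library highest in Adipoq, they were also highest of the group; their part was not tested.

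Reads of each gene were set against those of Adipoq in the same library, which removes the scaling between libraries. Per 100 Adipoq reads, Cfd had 567 and 590 in click replicates 2 and 3 and 505, 546 and 444 in EDC. Cidec had 34.6 and 55.2 in those click libraries and 36.8, 36.6 and 51.6 in EDC, and Retn had 46.3 and 38.4 in click and 37.5, 35.1 and 26.8 in EDC. Cidec thus overlapped between the groups on this scale, while for Cfd and Retn click replicates 2 and 3 lay just above the 3 EDC libraries. Pparg had 29.4 and 21.3 per 100 Adipoq reads in click replicates 2 and 3, below the 42.2, 52.1 and 96.8 of EDC. Scd1 had 541 and 641 in click, above the 110, 200 and 457 of EDC. In click replicate 1 the ratios rest on 10 Adipoq reads and went the other way for Pparg, with 1030 per 100 Adipoq reads, above every EDC library. Scd1 had 4100 there, and Fabp4 54300, against 1410 to 3580 elsewhere.

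Fabp4 was the most abundant of the 10 per length, with 272 ± 47.5 CPM per kilobase of exon in click and 261 ± 42.2 in EDC (SD, n = 3 each), and Lep the least, at 0.111 ± 0.193 in click and 0.176 ± 0.0865 in EDC. As a level not corrected for length, Fabp4 was at 196, 279 and 256 CPM in click and 257, 254 and 190 CPM in EDC. Click replicate 1 and EDC replicate 3 were its lowest libraries, and the groups overlapped. The log2 fold change was 0.06 (SE 0.23, edgeR adjusted p = 0.907), and it turned to -0.39 when library totals alone were used, which shifted all genes by a median of -0.47. Endothelial markers, of cells that also make Fabp4, summed to 236, 294 and 269 CPM in click and 279, 247 and 278 CPM in EDC. Click replicate 1 was at 84.1% of the EDC mean of Fabp4, against 2.54% for Adipoq.

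Scd1, on the minus strand at chr19:44394455-44407879, was one of the 2 members higher on average in click. It was at 14.8, 42.1 and 92.0 CPM in click and 20.1, 30.2 and 42.8 CPM in EDC. Click held both the lowest and the highest library. The edgeR log2 fold change of 0.68 (SE 0.62, with an adjusted p of 0.590) became 1.09 (SE 0.44) without click replicate 1 and -0.12 (SE 0.51) without click replicate 3. The direction of Scd1 thus rested on click replicate 3, the only library whose removal reversed it.

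**Figure D3:**
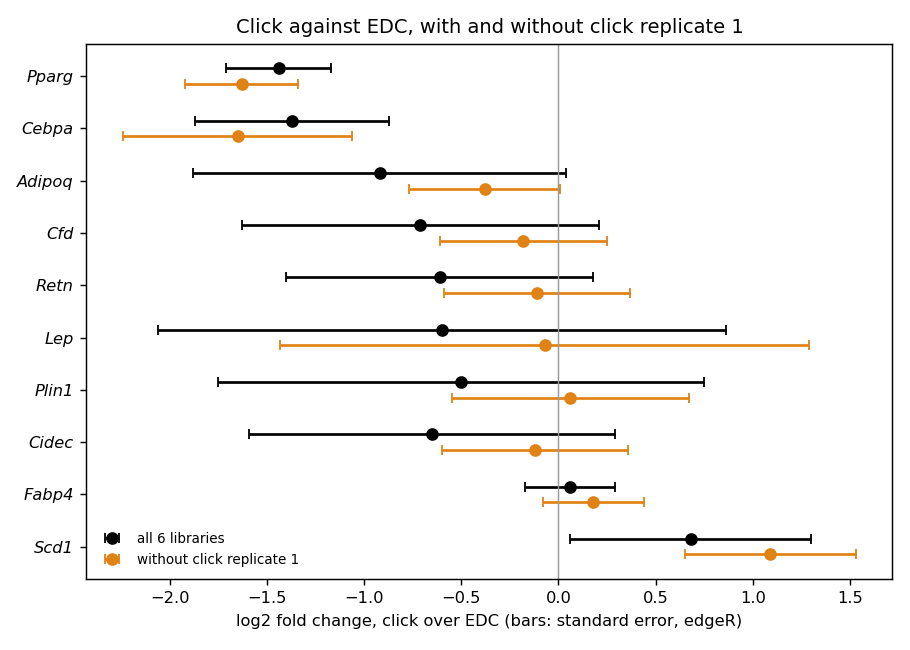
Log2 fold change of click over EDC for each gene (horizontal axis), with bars of 1 standard error from edgeR, for all 6 libraries (black) and without click replicate 1 (orange). Without that library Pparg is at -1.63 and Cebpa at -1.65, while Adipoq, Cfd, Retn, Lep, Plin1 and Cidec lie between -0.38 and 0.06. Without click replicate 3 instead (not drawn), Adipoq, Cfd, Retn, Plin1 and Cidec came to -1.80, -1.60, -1.26, -2.45 and -1.97.

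Relatives from the same gene families were read alongside. Plin2, the perilipin of droplets in macrophages and many other cells, was at 53.5, 18.5 and 39.3 CPM in click and 110, 80.5 and 232 CPM in EDC, with no overlap. Its log2 fold change was -1.93 (SE 0.52, edgeR adjusted p = 0.298; DESeq2 adjusted p = 0.0116). Fabp5, the epidermal form that macrophages also make, was at 66.2, 11.3 and 47.6 CPM in click and 129, 99.0 and 294 CPM in EDC (log2 fold change -2.06, SE 0.69, edgeR adjusted p = 0.298). Both were lowest in click replicate 2 and highest in EDC replicate 3, as the macrophage sum was. Fabp3, the form of muscle fibres, was at 362, 382 and 199 CPM in click and 122, 304 and 114 CPM in EDC, and the groups overlapped.

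Retnla, a resistin-like gene, differed the most among the 20 family genes tested by edgeR's p. It was at 5.17, 4.58 and 3.41 CPM in click and 0.641, 0.829 and 0.875 CPM in EDC (log2 fold change 2.48, SE 0.34, edgeR adjusted p = 0.298; DESeq2 adjusted p = 1.75e-07). Retn itself overlapped between the groups, so the 2 relatives had separate profiles. Retnlg, the form of neutrophils, had 0, 16 and 0 reads in click and 328, 0 and 365 reads in EDC. Scd2 was at 0.941, 24.9 and 48.3 CPM in click and 39.7, 25.9 and 47.1 CPM in EDC, and like the fat genes was lowest in click replicate 1. The C/EBP relatives Cebpb and Cebpd, which act early in fat cell formation, gave -0.57 (SE 0.38) and -0.41 (SE 0.48), with overlap. Cidea, the relative of Cidec in brown fat, was at 0.0724, 0.691 and 0.911 CPM in click and 0.366, 1.96 and 1.63 CPM in EDC. Of the adiponectin relatives, C1qtnf1 (-1.32, SE 0.51) and C1qtnf2 (-1.19, SE 0.52) were lower in each click library. C1qtnf9 (0.64, SE 0.27) was higher in each, and C1qtnf3 (-0.39, SE 1.00) overlapped. Plin3, Plin4, Plin5, Cebpg, Ppara, Ppard and Fabp7 overlapped as well, with log2 fold changes from -0.37 to 1.24. None of these was called by edgeR.

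**Figure D4:**
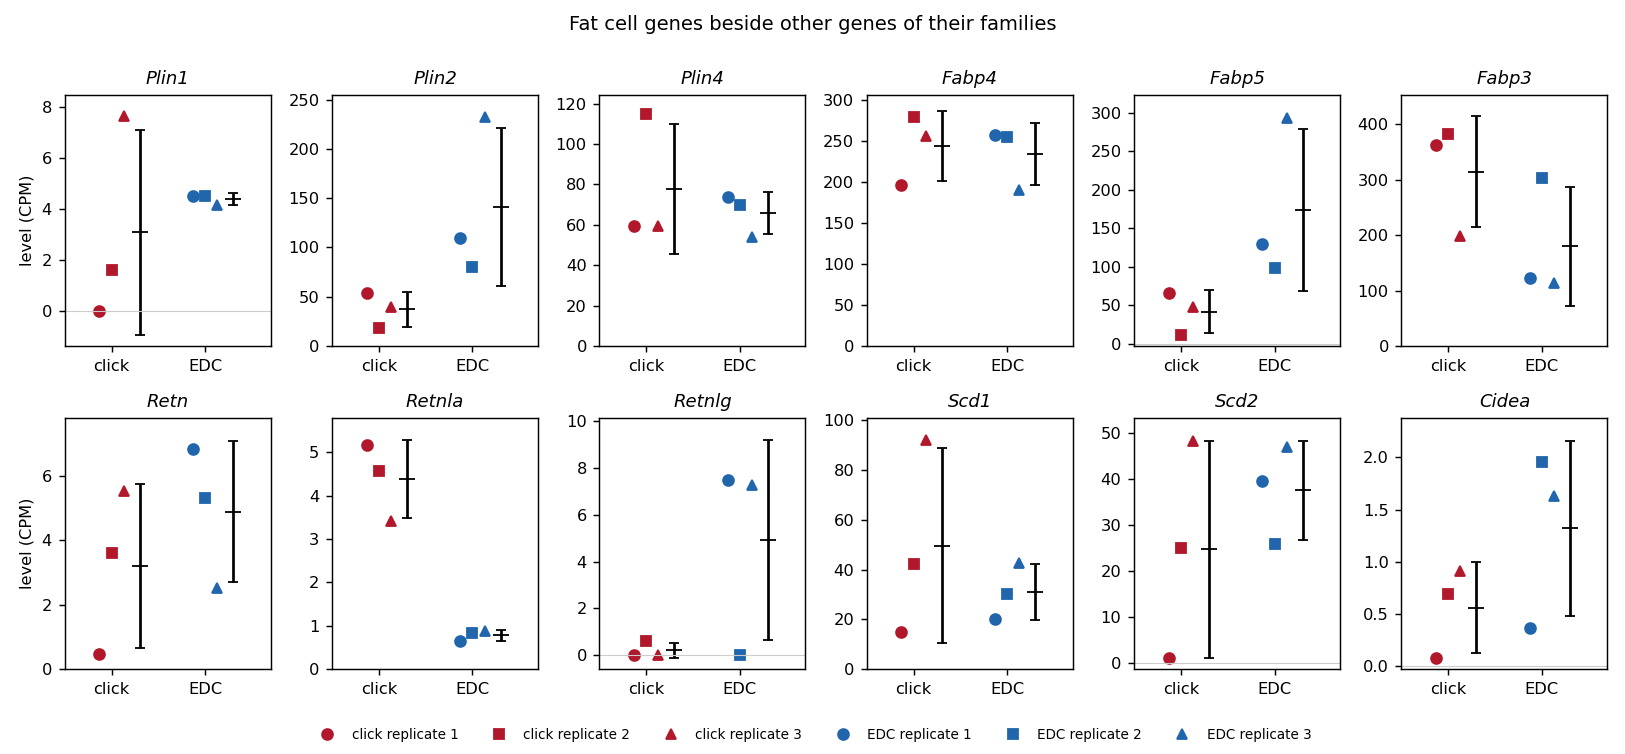
Level in CPM (vertical axis) of fat cell genes and relatives from their families in click and EDC muscle; points are libraries and bars the mean ± SD of n = 3. Plin2 and Fabp5 lie lower in every click library and Retnla higher, whereas Plin1, Fabp4, Retn and Scd1 overlap between the groups.

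The wider programme of the fat cell was read from 8 further lists, and edgeR's adjusted test called none of their genes. Of 13 other regulators, 7 lay lower and 6 higher in click with a median log2 fold change of -0.27, which became 9 lower and -0.69 on library totals alone. Klf5 gave -0.76 (SE 0.31), Mlxipl 0.57 (SE 0.24) and Rxra, the partner of PPAR gamma, 0.51 (SE 0.22); on library totals alone Mlxipl came to 0.03 and Rxra to 0.02. Of 11 tested secreted factors, 8 lay lower, with a median of -0.36 (11 and -0.64 on library totals alone). Angptl4, a PPAR target that inhibits lipoprotein lipase, was at 17.5, 4.98 and 5.99 CPM in click and 36.4, 19.5 and 27.3 CPM in EDC (log2 fold change -1.55, SE 0.52). Lcn2, which neutrophils also make, gave -4.03 (SE 1.29) and Metrnl -1.31 (SE 0.50). All 9 tested neutrophil markers lay lower in click, with a median of -4.60, and their part in the Lcn2 value was not tested. Of 10 nerve markers 9 lay higher, with a median of 1.52 (7 and 1.07 on library totals alone). Red cell markers (5 tested) and skin markers (3 tested) had medians of 0.14 and 0.25, which turned to -0.29 for both on library totals alone. Of 13 tested droplet and caveola genes, 7 lay lower, with a median of -0.11 (11 and -0.57 on library totals alone), led by Plin2; Hilpda gave -1.15 (SE 0.40) and Fitm1 0.45 (SE 0.26), which was -0.02 with library totals alone.

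Genes of lipid breakdown were split, with 6 of 12 on each side and a median of 0.14, which became 8 of 12 lower and -0.24 on library totals alone. Npr3, the clearance receptor for natriuretic peptides, was at 10.5, 25.1 and 8.20 CPM in click and 1.01, 1.88 and 1.99 CPM in EDC (log2 fold change 3.16, SE 0.52, edgeR adjusted p = 0.298; DESeq2 adjusted p = 1.91e-06). Its lowest click library was above its highest EDC library. Aqp7 gave 0.68 (SE 0.35). Among 23 tested genes of lipid synthesis and fuel uptake 13 lay higher, with a median of 0.31, but 8 with a median of -0.11 on library totals alone. Me1, malic enzyme, which supplies NADPH for fatty acid synthesis, was at 224, 324 and 210 CPM in click and 136, 146 and 97.1 CPM in EDC (log2 fold change 1.00, SE 0.26, edgeR adjusted p = 0.298; DESeq2 adjusted p = 0.0281). Agpat2, an acyltransferase of triglyceride synthesis, stood at -0.91 (SE 0.31), with 2.21, 3.02 and 4.38 CPM in click and 5.65, 6.11 and 6.32 CPM in EDC.

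Receptors and other surface genes had a median of -0.07 over 12 tested (-0.40 on library totals alone). The adiponectin receptor genes, which muscle fibres express, lay higher in every click library. Adipor1 was at 262, 333 and 215 CPM in click and 157, 183 and 151 CPM in EDC (log2 fold change 0.72, SE 0.23, edgeR adjusted p = 0.298), and Adipor2 gave 0.48 (SE 0.21). With library totals alone Adipor1 stayed above 0, at 0.22, and Adipor2 came to -0.00. Of the fibre markers, 12 of 12 lay higher in click with a median of 0.55, and 7 of 12 with library totals alone; their part in the receptor values was not tested. Car3 gave 0.85 (SE 0.36). The leptin receptor gene, Lepr, was at 2.53, 0.764 and 3.34 CPM in click and 3.02, 1.49 and 4.65 CPM in EDC, with overlap.

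Genes of fat cell precursors were split, with 6 of 12 tested on each side (8 lower on library totals alone). Dlk1, which marks precursors and holds back their differentiation, was at 3.87, 1.13 and 4.48 CPM in click and 16.8, 6.41 and 17.5 CPM in EDC (log2 fold change -2.10, SE 0.59, edgeR adjusted p = 0.298; DESeq2 adjusted p = 0.0175). Pdgfrb gave -0.82 (SE 0.22) and F3 -1.17 (SE 0.34). Pdgfra, the surface marker of fibro-adipogenic progenitors and a member of the fibroblast list as well, gave -1.27 (SE 0.37). These 4 were lower in each click library than in each EDC library. Gata3, Fmo2 and Gata2 of the same list were higher in each click library, with log2 fold changes of 2.24 (SE 0.70), 1.31 (SE 0.41) and 1.02 (SE 0.44), of which Gata2 and Gata3 encode factors that hold precursors back from becoming fat cells.

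Ucp1, the uncoupling protein that defines brown fat cells, was at most 0.359 CPM in the 6 libraries. Of 9 tested brown fat genes 7 lay higher in click with a median of 0.44, but 4 with a median of -0.03 on library totals alone; Cox7a1 gave 0.93 (SE 0.40; 0.44 on library totals alone) and Ppargc1a 0.65 (SE 0.29; 0.20 on library totals alone), and both are also expressed in muscle fibres. Dio2, a deiodinase, stood at -1.52 (SE 0.42).

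Likeness to Adipoq was measured by Pearson r in log2 CPM over the 6 libraries, among 11175 genes of sufficient level. Cfd stood nearest, with rank 2 after Adipoq itself, Cidec had rank 5 and Retn rank 13, with r of 1.00, 0.99 and 0.98, while Pparg had rank 3105 with r = 0.32. With the members and predicted genes left out, the 10 most alike had r of 0.9759 to 0.9920. They were Cpeb3, Nol10, Wapl, Bicd2, Raver1, Smarca2, Strada, Pck1, D17H6S53E and Gadd45g. Pck1, which makes glycerol for triglyceride in fat cells, was the only one of these 10 non-members in the fat cell lists, and was at 0.326 CPM in click replicate 1, 11.8 CPM in click replicate 3, and 7.18, 7.71 and 5.81 CPM in EDC. Cpeb3, a regulator of translation, was at 1.45, 18.2 and 23.0 CPM in click and 27.4, 28.5 and 23.3 CPM in EDC. All 10 were lowest in click replicate 1, and without it and EDC replicate 1, the 2 libraries farthest from the median of Adipoq, r was 0.50 to 0.93 over 4 libraries. Over the same 4 libraries the members Cfd, Cidec and Retn had r of 0.95, 0.86 and 0.79. These correlations are across libraries that share depth and composition and are given as descriptions.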

How the data were processed

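Muscle RNA of 6 mice was sequenced, 3 libraries per group. A column kit served for extraction and a SMARTer kit for library synthesis, per the labels' protocols. The authors deposited read counts per gene, whole numbers without normalisation, and mm10 is the build in the submitters' processing notes. Aligner, counter, annotation and strand setting were not given in the sources used here. Of 55335 rows, 3225 had no symbol (0.0631% to 0.0996% of reads) and were left out. Where 2 rows shared a symbol (80 symbols), the row with more reads stood for the symbol. The other row stayed in the library sizes and among the rows filtered for testing. Every count column had a sample. No 2 libraries agreed within sampling noise, with 66.3 to 517 times the sampling variance per gene between them.

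Groups came from the labels. The test was two-sided edgeR 4.0.16 quasi-likelihood (R 4.3.3; TMM, default filter by group, robust dispersion), adjusted by Benjamini-Hochberg over 15797 genes, at 0.05. An SE is the log2 fold change over the square root of F. Alternatives included DESeq2 1.42.0 and limma 3.58.1 (voom). The code was tested on simulated data. Exon lengths are merged exons of the GENCODE M21 basic set. Named were the members, the tested genes of their families, up to 3 genes of smallest p per fat cell list and the 10 genes most like Adipoq. Lgals12, Adrb3, Adig, Tusc5, Pnpla2, Lipe, Lepr, Cidea, Pdgfra, Csf1r, Ucp1, Gata2, Gata3, Fmo2 and Tmem120b were named as markers or after their values were seen. A gene that this rule names is not reported here. Members, lists and motifs were chosen with earlier results of these data known.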

Additional observations from a re-analysis of the deposited data

How the results depend on the processing

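Over 19 alternatives Pparg stayed lower in click (log2 fold change -1.93 to -1.32), as did Cebpa (19 of 19, with -1.82 the lowest) and Adipoq (-1.81 to -0.15). Pparg was the only member that any alternative called, by DESeq2 at -1.44, which made 1 member lower; over the alternatives its adjusted p ran from 4.73e-04 to 0.691. DESeq2 called 353 genes lower and 252 higher, where edgeR called 0 lower and 1 higher. The count of higher genes was 0 with limma-voom, the replicate block, the sex read from Xist and Ddx3y as a covariate, male libraries alone, and the ratio class of mt-Atp6 to Gm10925 reads as a covariate, with 2602, 3673, 1906, 1109 and 1677 genes at an unadjusted p under 0.05 in that order. Leaving out a replicate in turn gave 0 to 1 genes lower and 0 to 7 higher. It took Plin1 to between -2.45 and 0.06, Fabp4 to between -0.08 and 0.18 and Scd1 to between -0.12 and 1.09. Male libraries alone, 2 per group, turned the sign of Plin1 (0.10), Cidec (0.04), Retn (0.22) and Cfd (0.05), and library totals alone that of Fabp4 (-0.39). The cause was not tested. Without click replicate 3, Cfd, Retn and Cidec came to -1.60, -1.26 and -1.97, none called. Lep had 18 alternatives, since it has under 50 reads on average; its fitted -7.42 without click replicate 3 is no bound, because the other click libraries had 0 reads.

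Replicate numbers were not shown to pair the samples. Deviations of same-numbered libraries from their group means correlated at -0.05, 0.19 and 0.28, and numbers 2 and 3, but not 1, correlated best with their own number. With the replicate block, 0 members and 0 genes in all passed, and Pparg was at -1.46 (edgeR adjusted p = 0.104). At 3 libraries per group and these read counts, the values of Lep, Plin1, Adipoq and Cidec in click replicate 1 rest on at most 10 reads each.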
